A study of Mus musculus with 2 samples.

Results

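The miR-130 family (Mir130a, Mir130b, Mir301 and Mir301b) and the miR-148 family (Mir148a, Mir148b and Mir152) were examined in small RNA sequenced from hippocampus of adult wild-type C57BL/6 mice, strain B6NCrl, 6 months old. The members were the rows whose Ensembl identifier carries one of these symbols in the GENCODE M21 annotation, and 7 of the 2202 annotated miRNA genes met this rule. The study had 1 group of 2 libraries, numbered in the labels as biological replicates 1 and 2, with no treatment and no second condition. The labels describe the mice as male, although the sex field reads as not collected, and they do not say which layer of the hippocampus was taken. The donor identifier is the same for both, and separate animals are not stated, so p-values and spreads here measure only the difference between these libraries, which may be technical.

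A miRNA is cut from a hairpin, and either side of the hairpin, the 5p or the 3p arm, can give a mature strand that guides Argonaute to messenger RNAs. Target choice rests largely on the seed, bases 2 to 8 of the mature strand, so that miRNAs with the same seed form a family. The miR-130 family is known from studies of blood vessel growth, adipocyte differentiation and pulmonary vascular disease. The miR-148 family is known as a repressor of the DNA methyltransferase Dnmt1 and, in liver, of the low-density lipoprotein receptor.

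The seeds of both families nearly coincide, and the 3p arms from RefSeq (build GRCm38.p6) are shown for that reason, with the seed in capitals.
miR-130a-3p: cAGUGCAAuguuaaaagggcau
miR-130b-3p: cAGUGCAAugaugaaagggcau
miR-301a-3p: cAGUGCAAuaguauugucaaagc
miR-148a-3p: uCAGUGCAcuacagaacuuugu
miR-148b-3p: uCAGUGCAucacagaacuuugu
miR-152-3p: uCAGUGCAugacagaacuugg
RefSeq lists no 3p arm for Mir301b, so none is shown. The 6 arms held 2 seeds, 1 for each family. A run of 7 bases, CAGUGCA, stood in every one of these arms. It covered bases 1 to 7 of the miR-130 arms and bases 2 to 8 of the miR-148 arms, so that the seeds share 6 bases in a row, shifted by 1 base. None of the 7 members' 5p arms in the table had either seed.

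Beyond the seed the arms fall into close pairs. Positions are counted from 1 at the 5′ end, the first-named arm's base standing first. Between miR-130a-3p and miR-130b-3p, 20 of 22 bases were identical and the differences were U11A and A13G. Between miR-148a-3p and miR-148b-3p, 20 of 22 were identical as well, with C9U and U10C. The miR-148b-3p and miR-152-3p arms were identical at 19 of the 21 bases compared, with C10G and U20G. By contrast, miR-130a-3p and miR-301a-3p were identical at 12 of 22 bases.

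The hairpins of Mir301 and Mir301b are shown because they are the most alike in the miR-130 family and gave unlike counts in replicate 2. There Mir301 had 156 counts and Mir301b 3, whereas in replicate 1 both counts were low, at 5 and 1. Capitals mark the family seed, which each hairpin holds once.
Mir301 (chr11:87113004-87113089, plus strand): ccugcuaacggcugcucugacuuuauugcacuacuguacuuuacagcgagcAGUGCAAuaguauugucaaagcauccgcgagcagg
Mir301b (chr16:17124400-17124496, minus strand): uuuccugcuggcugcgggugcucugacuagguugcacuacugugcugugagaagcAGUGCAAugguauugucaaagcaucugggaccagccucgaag
The stretch of the Mir301b hairpin from base 55 to 77 differed from miR-301a-3p at 1 of 23 bases, A10G. The longest run shared by these hairpins was 16 bases, the longest among the pairs within each family, ahead of 15 bases for Mir148a and Mir148b. No member shared a run of 20 bases with any other annotated hairpin. Each of the 13 mature arms listed in RefSeq stood exactly in 1 annotated GENCODE M21 transcript, its own hairpin.

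Positions below are mm10, as in the annotation the files use. Genes of 1 seed family lay apart, except for 1 pair. Mir130b (ENSMUSG00000065572.1, chromosome 16, 17124061 to 17124142) and Mir301b (ENSMUSG00000076288.1) lie on the same strand, 257 bases apart, in an intron of 2610318N02Rik. Mir301 (ENSMUSG00000065589.1) lies in an intron of Ska2, a gene of the spindle and kinetochore complex. Mir130a (ENSMUSG00000065484.1, chromosome 2, 84741115 to 84741178) overlaps no annotated gene, and its nearest neighbour on the same strand is Gm19426, 990 bases away. In the other family, Mir148b (ENSMUSG00000065560.1, chromosome 15, 103285125 to 103285221) lies in an intron of Copz1 and Mir152 (ENSMUSG00000065515.1, chromosome 11, 96850393 to 96850465) in an intron of Copz2, on the host's strand in both cases. Copz1 and Copz2 are paralogues that encode zeta subunits of the coatomer, the coat of vesicles between Golgi and endoplasmic reticulum. Mir148a (ENSMUSG00000065505.1, chromosome 6, 51269812 to 51269910) has no annotated gene within 10 kb.

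The libraries held 4247092 and 5041568 reads counted on the strand of a miRNA gene in replicates 1 and 2, which are 38.2% and 39.9% of all reads. A further 43.8% and 45.7% of reads aligned to more than 1 place and entered no gene's count. Levels are given in CPM, a gene's counts per 1000000 reads counted on all miRNA genes of its library. Where a pair of values is given, replicate 1 stands before replicate 2. A level belongs to a whole hairpin gene, since the counts do not separate the arms. Levels are not divided by length, and the members' mature arms are 21 to 24 bases long. The limit that a count of 0 allows, 3 counts, is 0.706 CPM for replicate 1 and 0.595 CPM for replicate 2. Intervals are exact 95% binomial (Clopper-Pearson) intervals and, like this limit, cover counting error only. Of the 10 neuronal miRNA genes listed as markers, 10 had counts, but only 7 reached 10 CPM in both libraries. Together the 10 genes summed to 204970 and 184015 CPM. Listed genes of microglia and leukocytes (4 of 4 with counts) summed to 2212 and 2016 CPM, of red cells (3 of 3) to 18.8 and 23.8 CPM, of liver (1 of 1) to 31.8 and 42.4 CPM, and of heart and skeletal muscle (2 of 4, with Mir208a and Mir1a-2 at 0) to 116 and 42.6 CPM. At 10 CPM or more in both libraries stood 2 of the 4 microglia and leukocyte genes and 1 of the 3 red cell genes. The liver gene and 1 of the 4 heart and skeletal muscle genes, Mir206, did so too. Mir206 alone had 116 and 42.6 CPM, nearly the whole of that list's sum. In bulk tissue, fewer cells of a type and less RNA per cell cannot be told apart.

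Mir130a was the leading member of both families. Mir130a, a miRNA known from endothelial and blood-forming cells, had 5071 counts in replicate 1 and 4813 in replicate 2, at 1194 and 955 CPM (mean 1074 ± 169 CPM; SD, n = 2). It ranked 92nd of all annotated miRNA genes by mean level. Mir130b, with the same seed, had 447 and 533 counts, at 105 and 106 CPM (105 ± 0.334 CPM). By ratio, its 2 libraries were the closest of any member. Mir130a exceeded Mir130b by 11.3-fold in replicate 1 (interval 10.3 to 12.5) and 9.03-fold in replicate 2 (8.26 to 9.89).

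Mir301 had 5 counts in replicate 1 and 156 in replicate 2, at 1.18 and 30.9 CPM. These values have a mean of 16.1 CPM and an SD of 21.05 CPM, so the mean describes neither library. Mir301b had 1 and 3 counts, at 0.235 and 0.595 CPM. It was at or under the level that a count of 0 allows in both libraries. Mir301b thus stood far below Mir130b, its neighbour in the same intron. The ratio of Mir130b to Mir301b was 447 in replicate 1 (interval 79.8 to 17695) and 178 in replicate 2 (60.5 to 864). With 1 base between the 3p stretches of Mir301 and Mir301b, any read that aligned to both hairpins is in neither count, so these levels are uncertain. The same limit applies to Mir130a with Mir130b, Mir148a with Mir148b and Mir148b with Mir152, whose 3p arms differ at 2 bases. The intervals of ratios between members do not cover such a loss of reads.

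**Figure D1:**
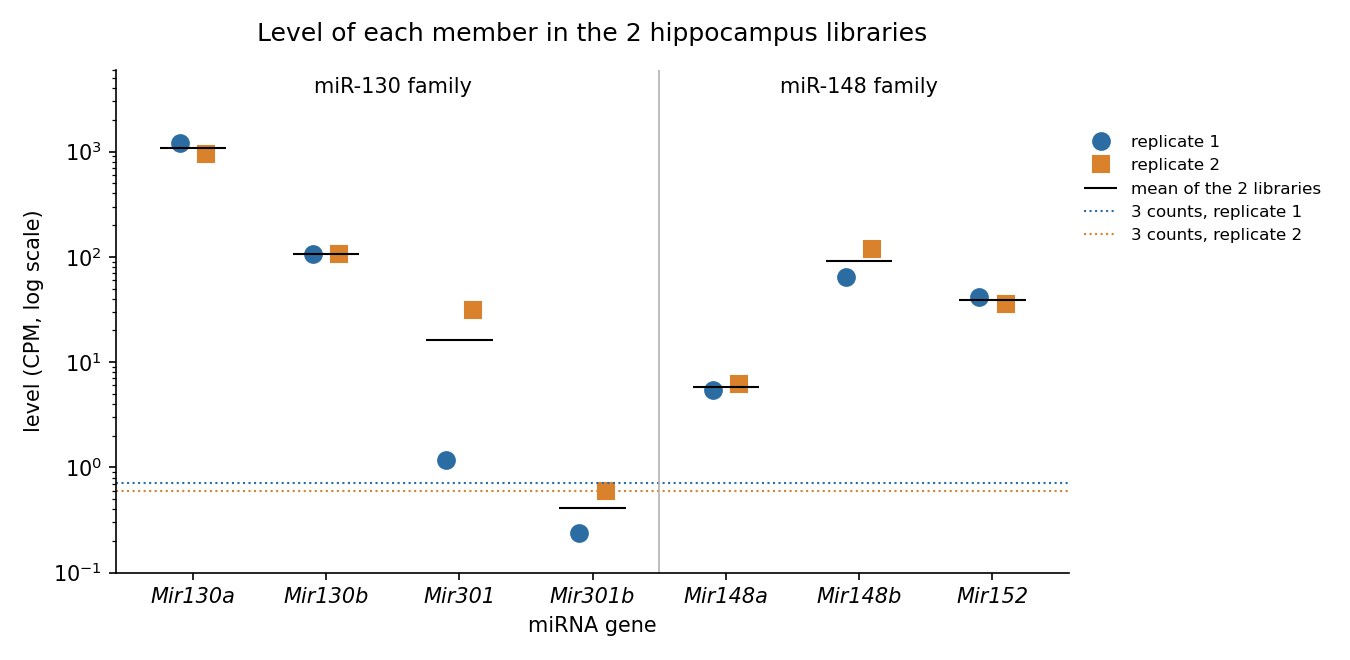
Level of each member in CPM (vertical axis, log scale) in replicate 1 (circles) and replicate 2 (squares), with the mean as a bar and the level of 3 counts in each library as a dotted line. Mir130a stands at 1194 and 955 CPM, Mir301b at or under the dotted line of its library, and the values of Mir301 are 1.18 and 30.9 CPM.

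Mir148b led the miR-148 family. Mir148b had 272 counts in replicate 1 and 598 in replicate 2, at 64.0 and 119 CPM (91.3 ± 38.6 CPM; SD, n = 2). Mir152 had 177 and 178 counts, at 41.7 and 35.3 CPM (38.5 ± 4.50 CPM). Mir148a, known as an abundant miRNA of liver and B cells, had 23 and 31 counts, at 5.42 and 6.15 CPM (5.78 ± 0.519 CPM). Both values lay above the level of 3 counts and below 10 CPM. Mir148b exceeded Mir148a by 11.8-fold in replicate 1 (interval 7.72 to 19.0) and 19.3-fold in replicate 2 (13.4 to 28.6), although their 3p arms differ at 2 bases. Mir152 exceeded Mir148a by 7.70-fold (4.97 to 12.5) and 5.74-fold (3.90 to 8.70).

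In order of mean level the members ran Mir130a, Mir130b, Mir148b, Mir152, Mir301, Mir148a and Mir301b. Of the 6 pairs of neighbours in this order, 4 were separate, with both libraries of the higher member above both of the next. The separation of Mir152 from Mir301 was resolved in replicate 1 alone, where their ratio was 35.4 (interval 14.9 to 110.4). In replicate 2 the ratio was 1.14 (0.915 to 1.42), within counting error. The closest values of this pair, 35.3 and 30.9 CPM, were both from replicate 2. Mir130b and Mir148b overlapped. The ratio of Mir130b to Mir148b was 1.64 in replicate 1 (interval 1.41 to 1.92) and 0.891 in replicate 2 (0.792 to 1.003). Mir301 and Mir148a overlapped too, Mir301 being the lower in replicate 1 and the higher in replicate 2. At a minimum of 10 CPM in both libraries, 4 of the 7 members were detected, beside 302 of all 2202 annotated genes (13.7%). Only 799 of the 2202 genes had a count in either library, and the members were chosen with earlier results known. The difference between these shares is therefore not a result about the families. Both libraries exceeded 100 CPM for Mir130a and Mir130b.

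**Figure D2:**
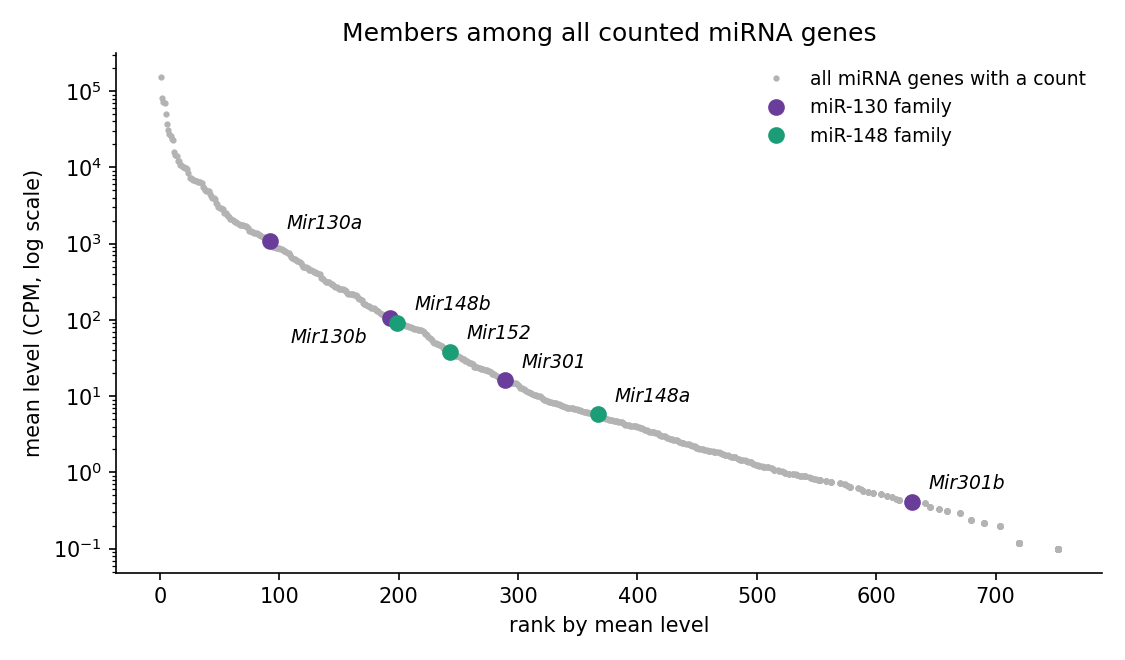
Mean level of the 2 libraries in CPM (vertical axis, log scale) against rank by that level, for all miRNA genes with a count in grey and the members in colour. Mir130a holds rank 92, and the other members spread from rank 193 (Mir130b) to rank 630 (Mir301b).

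Taken as families, miR-130 summed to 5524 counts in replicate 1 and 5505 in replicate 2, at 1301 and 1092 CPM (1196 ± 148 CPM; SD, n = 2). The miR-148 family summed to 472 and 807 counts, at 111 and 160 CPM (136 ± 34.6 CPM). Both families together made up 0.141% of counted reads in replicate 1 (interval 0.138 to 0.145%) and 0.125% in replicate 2 (0.122 to 0.128%). The miR-130 sum exceeded the miR-148 sum by 11.7-fold in replicate 1 (10.7 to 12.9) and 6.82-fold in replicate 2 (6.33 to 7.35). Without Mir130a, a choice made after its values were seen, the ratio was 0.960 (0.842 to 1.09) and 0.857 (0.774 to 0.9503).

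The families were also unequal inside. Mir130a held 91.8% of the miR-130 counts in replicate 1 (interval 91.0 to 92.5%) and 87.4% in replicate 2 (86.5 to 88.3%). Mir130b held 8.09% and 9.68%, and Mir301 held 0.0905% and 2.83%. The miR-148 family was more evenly shared. Mir148b held 57.6% in replicate 1 (53.0 to 62.1%) and 74.1% in replicate 2 (70.9 to 77.1%), and Mir152 held 37.5% (33.1 to 42.0%) and 22.1% (19.2 to 25.1%). Mir148a held 4.87% and 3.84%.

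**Figure D3:**
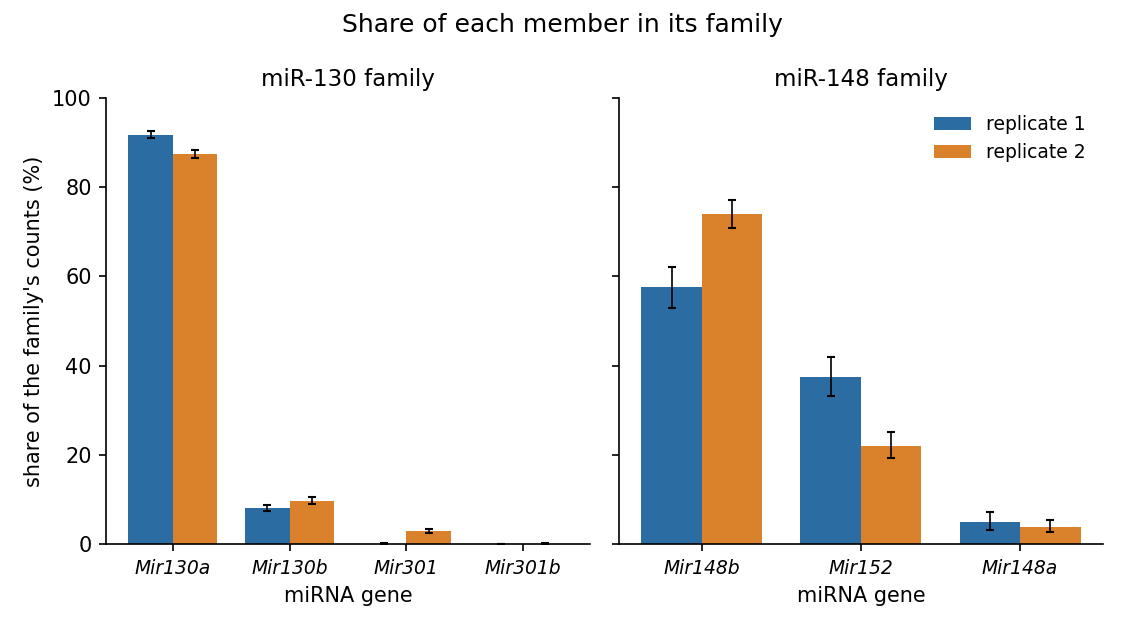
Share of each member in the counts of its family, in percent, in replicate 1 (left bar of each pair) and replicate 2 (right bar), with exact 95% binomial intervals. Mir130a takes 91.8% and 87.4% of its family, whereas Mir148b takes 57.6% and 74.1% and Mir152 takes 37.5% and 22.1% of theirs.

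Other miRNAs with a member's seed were looked for among 1738 mature arms of the RefSeq table. The miR-130 seed stood in 7 arms, of which 4 belonged to genes outside the family as defined here. Without a listed 3p arm, Mir301b is not among the 7, although its hairpin holds the seed. The miR-148 seed stood in 3 arms, its own members. The 4 further arms are shown because their genes gave no count.
miR-130c: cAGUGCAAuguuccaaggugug
miR-721: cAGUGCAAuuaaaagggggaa
miR-6341: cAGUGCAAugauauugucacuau
miR-6389: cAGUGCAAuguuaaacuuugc
Mir130c, Mir721, Mir6341 and Mir6389 each had 0 counts on the gene's strand in both libraries. The opposite-strand column held 1 count on Mir130c in replicate 2 and 0 on every member.

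The genes closest in level were found for each member by the larger of the absolute differences of log2(CPM + 1) in the 2 libraries, a description of level over 2 libraries. Mir425 was closest to Mir130a (larger difference 0.18), Mir186 to Mir130b (0.03) and Mir7j to Mir152 (0.10). Mir7666 was closest to Mir148a (0.12) and Mir3093 to Mir148b (0.18). Mir301 had no close match, the nearest being Mir141 at 1.20, with levels of 4.00 and 13.7 CPM. For Mir301b, 10 genes tied with the same 1 and 3 counts.

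The libraries were then compared gene by gene. Each count of replicate 1 was set within the sum of both libraries by an exact two-sided binomial test with Benjamini-Hochberg adjustment over the 522 genes whose libraries summed to 10 counts or more. This test compares the reads of 2 libraries and not conditions. It called 3 of the 6 members tested, beside 266 of 522 genes (51%), so the members were called at about the share of all genes. Of the members, 2 were called as lower in replicate 1, beside 28.2% of tested genes, and 1 as higher, beside 22.8%. Over all genes the split was 119 higher and 147 lower in replicate 1, and the balance turned with the scaling, to 135 higher and 123 lower under TMM and 135 higher and 122 lower under DESeq2 size factors. Mir301b, with a sum of 4 counts, was not tested, and its ratio of 0.396 (interval 0.00754 to 4.93) was not resolved at this depth.

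Mir301 was lower in replicate 1, with a log2 ratio of replicate 1 over replicate 2 of −4.58 (interval −6.36 to −3.46; adjusted p = 4.39e-34, exact binomial test). Of the 522 genes tested, 2 lay further from 0 with 0.5 counts added to each library. They were Mir26a-1 (log2 ratio 5.24) and Mir201 (4.64), named after their values were seen, and both were higher in replicate 1. Mir201 had 10 and 0 counts. Among the 311 genes that summed to 100 counts or more, Mir301 stood behind Mir26a-1 alone.

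Mir148b was lower in replicate 1 as well, by a log2 ratio of −0.89 (interval −1.10 to −0.68; adjusted p = 1.80e-17, exact binomial test). Mir130a was higher in replicate 1, at 0.32 (0.27 to 0.38; adjusted p = 6.03e-28, exact binomial test). The remaining tested members missed the threshold. Mir152 had a log2 ratio of 0.24 (interval −0.07 to 0.55; adjusted p = 0.194, exact binomial test). Mir148a had −0.18 (−1.03 to 0.64; adjusted p = 0.797, exact binomial test). Mir130b had −0.01 (−0.19 to 0.18), and its sign turned positive (0.0665 and 0.0697) when the libraries were scaled by TMM or by DESeq2 size factors.

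Only Mir301 among the 6 tested members lay over 2-fold apart, where 16.1% of all tested genes did, and 9.2% of them were over 2-fold lower in replicate 1. The median absolute log2 ratio was 0.28 over the 6 tested members and 0.46 over all 522 genes. These medians are not matched for depth. Only 311 of the 522 genes summed to 100 counts or more, as all tested members but Mir148a did. Within the miR-130 family, Mir130a was higher and Mir301 lower in replicate 1. Within the miR-148 family, the intervals of Mir148b and Mir152 did not overlap.

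**Figure D4:**
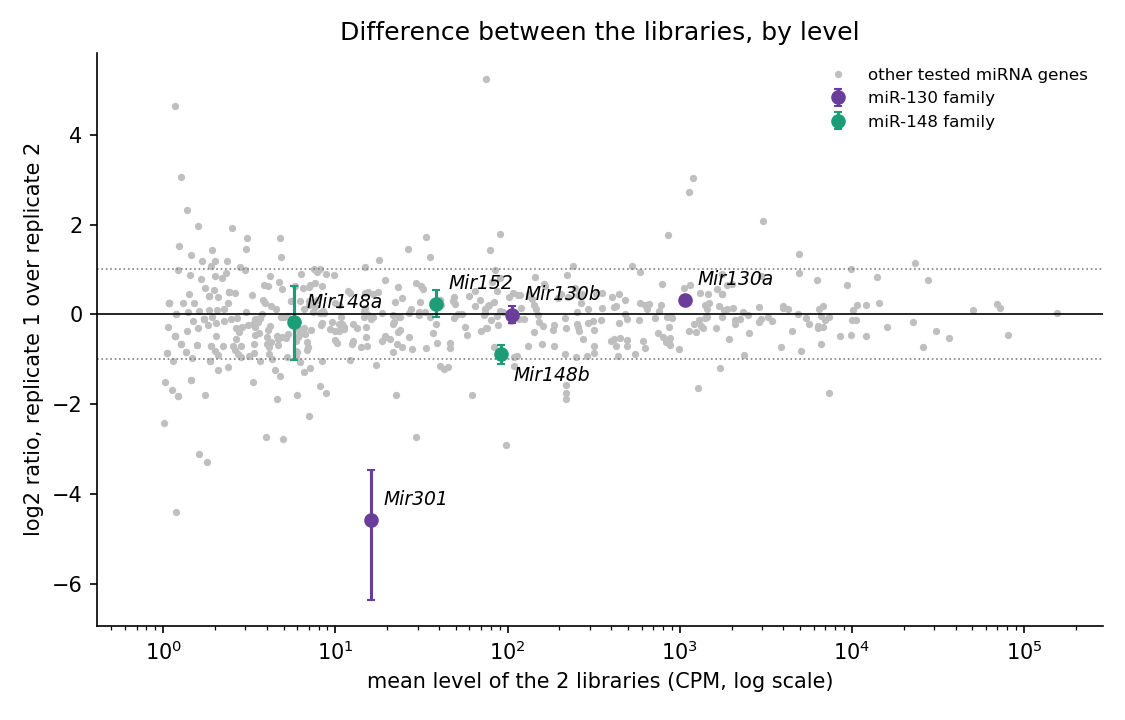
Log2 ratio of replicate 1 over replicate 2 (vertical axis) against mean level in CPM (log scale) for the 522 genes tested, with members in colour and their exact 95% intervals as bars. Dotted lines mark a 2-fold difference, and Mir301 lies at −4.58 while the other 5 tested members lie within 2-fold.

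Other values also differed between the libraries. The choroid plexus genes Mir204 and Mir211 together had 7108 CPM in replicate 1 and 2784 CPM in replicate 2. Both genes had counts, but only 1 of the 2 reached 10 CPM in both libraries. The sum therefore does not show that both genes differed. Listed oligodendrocyte genes (3 of 3 with counts, 2 of them at 10 CPM or more in both libraries) summed to 5817 and 8786 CPM. By contrast, sums of listed endothelial and mural genes (3 of 3 with counts) were close, at 8456 and 8769 CPM. Of this list, Mir126a was lower in replicate 1, at 5706 and 7027 CPM, and the rest together was higher. The close sums therefore do not show that each of these genes was alike in both libraries. Reads that could not be aligned made up 15.1% and 11.4%. Per the labels, adapters were trimmed under protocols of unlike version in the 2 libraries. The part of any of these in the ratios of Mir301, Mir148b and Mir130a was not tested.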

How the data were processed

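The authors deposited a table of raw read counts on miRNA genes for each library, with 3 count columns and 4 summary rows, placed on mm10 with GENCODE M21 per the file headers. Not given in the sources used here are the aligner and the counting program. Counts on the gene's strand were used. Summary rows (61.8% and 60.1% of reads in replicates 1 and 2) stayed out of library sizes and tests. The quasi-likelihood test of edgeR could not be fitted to 1 library against 1, so an exact binomial test was used, which takes in counting error and not the spread between libraries, with 0.5 counts added for log2 ratios and a threshold of 0.05. Members and marker lists were chosen with earlier results of these data known. Genes named are the members, genes with a member's seed, the nearest gene by level and neighbours within 10 kb, beside marker genes from the fixed lists. These marker genes are Mir204, Mir211, Mir208a, Mir1a-2, Mir124a-2, Mir124a-3, Mir126a and Mir206. Of them, Mir124a-2, Mir124a-3, Mir126a and Mir206 were singled out after their values were seen. Mir26a-1 and Mir201 were added after their values were seen. All 7 members had a hairpin in the RefSeq sequence table, but no 3p arm was listed there for Mir301b. Alternatives covered the count column, scaling (edgeR TMM, DESeq2 size factors, all reads), the added count, the minimum sum and left-out libraries. Python 3.11.15, numpy 2.4.6, pandas 2.3.3, scipy 1.17.1, matplotlib 3.10.9, R 4.3.3, edgeR 4.0.16 and DESeq2 1.42.0 were used.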

Additional observations from a re-analysis of the deposited data

How the results depend on the processing

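No paired analysis was possible because the study has 1 group. Scaled to all reads of a library, a larger denominator by construction, the miR-130 sum averaged 467 CPM and the miR-148 sum 53.2 CPM, in place of 1196 and 136 CPM. Without Mir130a, chosen after seeing the data, the mean ratio of miR-130 to miR-148 was 0.909 in place of 9.26. The log2 ratio of Mir130b, not called in any setting, changed sign to 0.0665 under TMM and to 0.0697 under DESeq2 size factors. Leaving out a library returns the values of the other, so it adds no check beyond the values of each library. The range was 1092 to 1301 CPM for the miR-130 sum and 111 to 160 CPM for the miR-148 sum. For their ratio it was 6.82 to 11.7, and for Mir301 1.18 to 30.9 CPM. The count of 266 called genes, and the 3 members called, stayed within 1.5 times under the strand column, the scalings and the minimum sums tried, but both scalings turned the balance of calls to more higher than lower in replicate 1. The log2 ratio of Mir301 ranged from −4.69 to −4.25 with 0.1 and 2 counts added. No member shared 20 bases with another hairpin, so leaving out such members changed nothing. Depth limits Mir301b (1 and 3 counts) and Mir301 in replicate 1 (5 counts).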
